A study of Mus musculus with 87 samples.

Results

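H3K4me3, a histone mark found at active and poised gene starts, was profiled in *Obox4* KO and WT mouse embryonic stem cells (mESCs) grown in pladienolide B (PlaB), an inhibitor of the splicing factor SF3B that brings mESCs towards a totipotent, 2C-like state. The members are the 6 CUT&RUN peak lists of this mark with PlaB, 3 from *Obox4* KO mESCs and 3 from WT EB3 mESCs, chosen by their labels among the 87 samples of the series. WT cells were the EB3 line, and KO cells were derived from it by removal of nearly all protein-coding *Obox4* copies, so that all 6 cultures share the line and the PlaB treatment and differ in the *Obox4* cluster. Whether the 3 KO cultures came from a single clone is not given in the sources used here, so the p-values cover the spread among these 6 cultures and no more. The untreated KO and WT lists of the same mark (3 each), the H3K27ac and H3K27me3 lists with PlaB (3 per genotype), RNA-seq of the PlaB cultures (3 per genotype), peak lists of 3×FLAG-OBOX4 from doxycycline-treated inducible mESCs (3) and of 3×FLAG-DUX from an inducible mESC line (1) served as independent readouts.

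OBOX4 is a homeobox factor encoded by a multicopy cluster and expressed in 2C-embryos. DUX, a double homeobox factor, activates 2C-genes and the endogenous retrovirus MERVL, whose long terminal repeat MT2_Mm acts as a promoter in 2C-embryos and in the rare 2C-like cells of an mESC culture. H3K4me3 is laid down by the KMT2 and SETD1 complexes at CpG-rich promoters and at active repeat promoters, and at promoters of developmental genes in mESCs it often lies beside H3K27me3, the mark of Polycomb repression.

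CTGGGAT, the letters that open the OBOX4 motif, was searched on both strands of the MT2_Mm repeats in GRCm38.p6. Of 2387 MT2_Mm repeats of at least 300 bases, 83.9% held CTGGGAT in their last 300 bases, against 6.18% of 32851 RefSeq promoters of that length. The letters were thus present in most MT2_Mm copies, and 9 of the 11 copies marked in WT only held them.

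The KO lists held 35737, 33649 and 36515 peaks and the WT lists 32127, 33840 and 31829. Peak lists hold no reads, so the sequencing depth behind them is unknown. The covered bases overlapped more within a genotype (Jaccard index 0.781 to 0.844) than between genotypes (0.693 to 0.726). The peak enrichment (the caller's ratio of pileup to local background) had a higher upper range in KO, with 95th percentiles of 78.6 to 85.1 against 53 to 54.6 in WT. At 18589 promoters with a peak in all 6 lists the median KO minus WT difference was 0.54 on the log2 scale before libraries were centred. All differences below are log2, KO minus WT, after each library was centred on its median over those promoters, unless said otherwise. The shift was not even: it was 0.07 in the weakest 10% of promoters and 0.62 in the strongest 10%, so that centring placed weak promoters below 0. Values without centring, or after quantile normalization, are therefore given beside the falls.

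**Figure D1:**
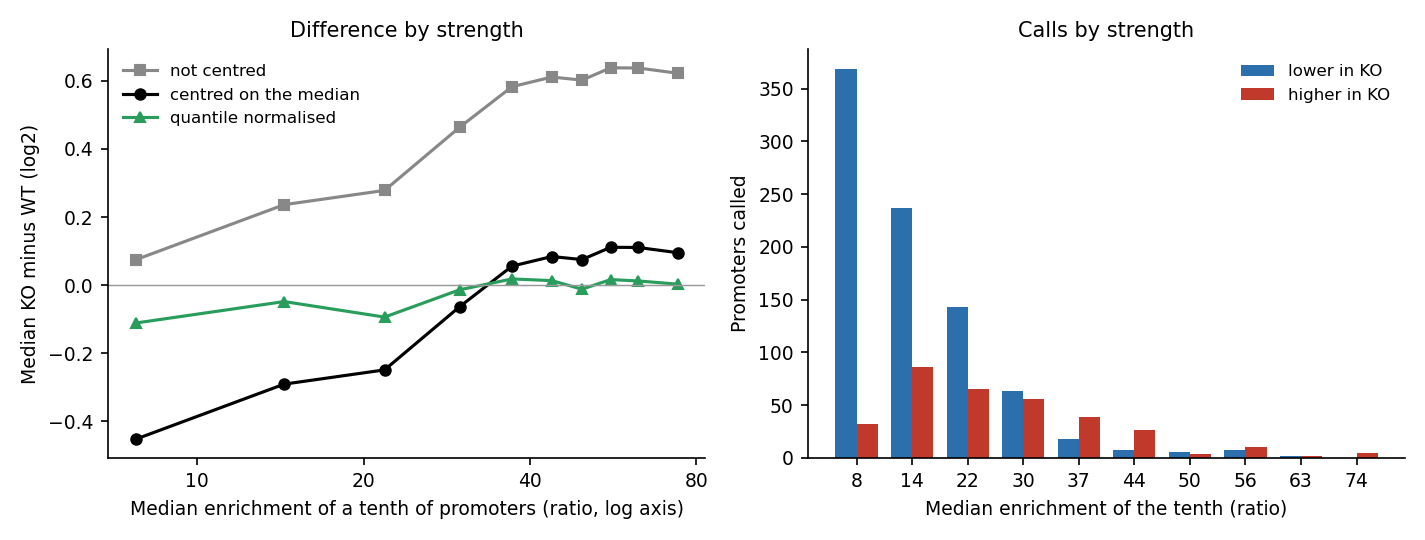
Left, the median KO minus WT difference (log2) in 10 equal bins of 18589 promoters ordered by enrichment (ratio, log axis), without centring, centred and quantile normalised. Right, the promoters called lower and higher in KO in each bin, where the weakest bin held 369 lower calls and the strongest bin 0.

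Whether the cells matched their labels was checked on marker promoters and on *Obox4*. Of 8 pluripotency markers 7 had a peak in every list, with *Pou5f1* at enrichments of 127, 116 and 118 in KO and 88.6, 89.7 and 77.9 in WT, and *Esrrb* had none in the window used. Of 25 markers of fibroblasts, blood, endoderm, trophectoderm and neurons, 15 had a promoter peak in all 6 PlaB lists, 2 in some and 8 in none (*Col3a1*, *Dcn*, *Ptprc*, *Spi1*, *Gata1*, *Gata4*, *Elf5* and *Dcx*), so the mark alone does not set these lineages apart. In RNA the pluripotency markers summed to 1842 to 2342 CPM in KO and 3487 to 3603 CPM in WT, and 3 of 8 (*Sox2*, *Klf4* and *Prdm14*) fell, with a median of −0.78. The 25 other markers summed to 412 to 457 CPM in KO and 246 to 251 CPM in WT. Primitive endoderm markers had a median RNA difference of 1.52 (2 of 5 rose, *Gata4* and *Sox17*). Trophectoderm markers had 1.15 (2 of 5 rose, *Tfap2a* and *Gata3*) and blood markers 2.08 (*Spi1* rose, of 3 tested). Without the third KO RNA library the medians were 0.90, 1.40 and 2.20. Of the 5 trophectoderm markers 2 then rose and 2 fell (*Cdx2* −1.03 and *Eomes* −1.04). In primitive endoderm 1 of 5 then rose, and in blood 2 of 3. Fibroblast markers were low, at 13.6 to 18 CPM in sum in KO and 6.75 to 7.41 CPM in WT. Over all genes tested in RNA 4.92% rose and 3.96% fell (6.68% and 6.94% without the third KO library). The part of these marker shifts in the H3K4me3 differences was not tested. The *Obox4* copies could not be checked by the mark, since of 39 annotated copies only the pseudogene *Obox4-ps35* had a peak, in WT library 1. In RNA the summed *Obox4* level was 4.62, 3.61 and 11.7 CPM in the KO libraries and 17, 15.7 and 15.8 CPM in WT. By this sum the third KO RNA library stood closer to WT. By copy, *Obox4-ps16* and *Obox4-ps27*, both expressed in WT (*Obox4-ps27* at 2.59, 2.21 and 1.87 CPM), had 0 CPM in every KO library. *Obox4-ps18* had 0, 0 and 0.71 CPM in KO and 0.49 to 1.23 CPM in WT. The sum of the third library came mostly from *Obox4-ps33* (4.34 CPM), *Obox4-ps35* (3.83) and *Obox4-ps31* (2.11). The other KO libraries expressed these copies too, at 0.43 to 1.85 CPM. Without the third KO RNA library 1561 genes rose and 1623 fell in RNA (edgeR), against 1098 and 885 with it. Values without it are given where a call or a count turned on it.

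MT2_Mm, the MERVL promoter repeat, lost most of its marked copies in KO. A locus was counted as marked when a peak overlapped it, and only the 2266 MT2_Mm loci outside all promoter windows were counted. The KO libraries held 3, 4 and 1 marked loci and the WT libraries 35, 28 and 15, without overlap. The share of marked loci differed by −3.40 ± 0.33 (SE, n = 3 per genotype; limma, adjusted p = 0.000395; −3.12 without centring). Of 238 repeat names tested, 41 (17.2%) fell and 39 (16.4%) rose, and MT2_Mm had the largest fall. Bulk cultures do not tell fewer 2C-like cells from less H3K4me3 per cell.

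MERVL-int, the internal part of the same retrovirus, behaved alike, with 3, 2 and 2 marked loci of 2227 in KO and 32, 18 and 9 in WT. The difference was −2.95 ± 0.30 (adjusted p = 0.000395). MT2_Mm and MERVL-int lie next to each other, so a peak can be counted in both. Among peaks with a −log10 q of at least 10 the counts were 2, 4 and 1 against 6, 5 and 5 for MT2_Mm, and 1, 2 and 1 in either genotype for MERVL-int, so the counts of the main comparison came mostly from weak peaks. Reads that match several copies were placed by the aligner at a single best site, which makes the position of a marked copy less certain than the sum over copies.

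Without PlaB the counts of the genotypes overlapped at MT2_Mm. MT2_Mm had 5, 8 and 5 marked loci in untreated KO and 11, 7 and 8 in untreated WT, a centred difference of 0.03 (adjusted p = 0.945). Calls for repeat names in untreated cells depended on the scale. After centring 36 of 238 names fell and 41 rose, and without centring 178 fell and 1 rose. The KO minus WT difference was lower with PlaB than without by 3.45 ± 0.43 for MT2_Mm and by 3.36 ± 0.48 for MERVL-int (interaction term, adjusted p = 0.000136 and 0.000341; −2.62 and −2.52 without centring). The WT cultures with PlaB thus stood above the other 3 groups in the count over the family.

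**Figure D2:**
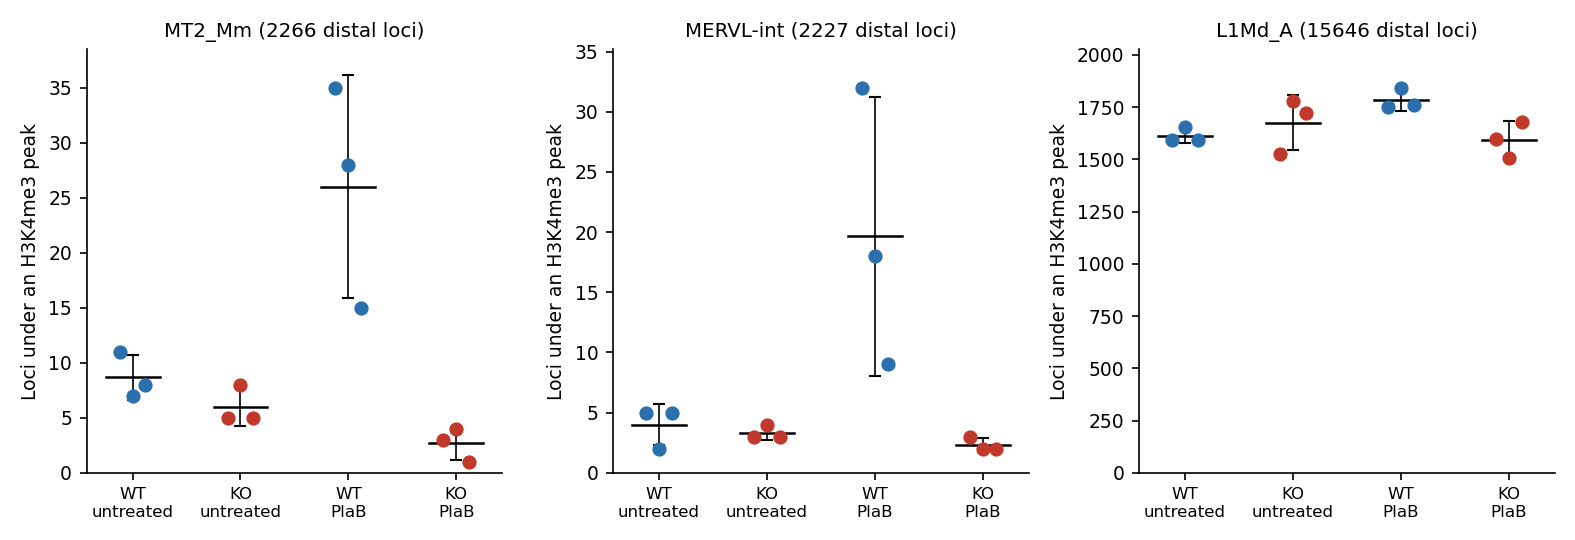
Number of distal loci of MT2_Mm, MERVL-int and L1Md_A under an H3K4me3 peak in each of 12 libraries, with the mean and SD of 3 libraries per group. WT with PlaB holds 15 to 35 MT2_Mm loci, above all other libraries (1 to 11), while for L1Md_A the counts with PlaB are 1506 to 1681 in KO and 1749 to 1843 in WT.

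At the level of single copies, 14 MT2_Mm loci were held by at least 2 WT replicates and 3 by at least 2 KO replicates, and these 3 were among the 14. The 11 held by WT only had no peak in any KO library with PlaB. Their WT enrichment was low (median 4.35), near the lower end of each list. Of these 11 loci, 4 carried an OBOX4 peak in at least 2 lists, 5 a DUX peak and 5 neither. Over all distal loci, the 158 with OBOX4 binding held 2, 3 and 1 marks in KO and 11, 9 and 5 in WT. The 1843 with neither factor held 0, 0 and 0 in KO and 13, 12 and 6 in WT. The loss was therefore seen at copies with and without a peak of either factor.

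The copy at chr1:58767162-58767654 was held by both genotypes at 5.34, 8.74 and no peak in KO and 10.7, 11.5 and 9.31 in WT (−1.45 ± 0.38, adjusted p = 0.0338), and the fall was −0.92 without centring. The repeat lay under the peak but not under its summit.

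MERVL transcripts fell with the mark. RNA reads of MERVL-int were 3466, 3417 and 4938 CPM in KO and 17293, 18722 and 16267 in WT (−1.81, edgeR, adjusted p = 0.00156; −2.31 without the third KO library). MT2_Mm reads were 511, 512 and 653 against 2037, 2190 and 2020 CPM (−1.58, adjusted p = 0.00405; −1.99 without that library). Of 1054 repeat names tested in RNA, 13 fell (1.23%).

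The OBOX4-associated repeats RLTR13B and RLTR9 changed less. RLTR13B2 had 26, 27 and 16 marked loci of 283 in KO and 36, 40 and 27 in WT (−0.86 ± 0.15, adjusted p = 0.00320). RLTR13B1 (−0.63, adjusted p = 0.00980) and RLTR9E (−0.49, adjusted p = 0.00574) fell too, but without centring their adjusted p was 0.182 and 0.212. RLTR9D (−0.24, adjusted p = 0.0622) and RLTR13D6 (−0.10, adjusted p = 0.675) did not pass, and RLTR9D2 had too few marked loci to test. Of the 283 RLTR13B2 loci, 130 carried OBOX4, and these held 25, 24 and 15 of the marks in KO and 33, 38 and 25 in WT.

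Other repeat names moved in both directions. The falls next in size were IAPEz-int, an intracisternal A-particle, with 82, 80 and 79 marked loci against 138, 155 and 109 (−0.99 ± 0.10), RLTR45-int (−0.89) and ORR1A0 (−0.87). The largest rises were RMER17A2 (21, 18 and 16 against 10, 7 and 6, 0.96 ± 0.12), RLTR17B_Mm (0.91), RMER1B (0.75), RLTR10 (0.73) and MER20 (0.69), all with adjusted p of at most 0.00431. Among SINE names 18 of 32 rose. Without centring 9 names fell and 50 rose, so most of the falls other than the MERVL pair depended on the scale.

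At single distal repeat loci, 2013 of 22821 were higher in KO (8.82%) and 1879 lower (8.23%). A locus was called at an adjusted p of at most 0.05 and a log2 difference of at least 1. Without centring the counts were 4794 and 679, and 1659 higher and 679 lower calls were shared by centring, quantile normalization and no centring. The largest single changes were seen where the edge of a strong peak reached a repeat in a single genotype: an RMER10A copy at chr17:17181628-17182042 had 165, 149 and 147 in KO and no peak in WT (4.89 ± 0.12), a PB1D9 copy at chr12:4920356-4920398 had 80.7, 76.9 and 82.6 in WT and no peak in KO (−4.99 ± 0.13), and neither held a summit. At both copies the genotype without a peak took the floor, the 5th percentile of each list. The size of these differences rests on that value. Among 7094 loci with summits inside the repeat, 137 were higher and 753 lower. Leaving out KO replicate 1 left 672 higher loci and leaving out WT replicate 2 left 1038 lower ones.

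L1Md_A, a young LINE-1 subfamily with its own promoter, was singled out after its values were seen. Of 1748 L1Md_A loci tested, 362 (20.7%) were lower and 0 higher (limma; the median difference was −0.51), and with summits inside the locus it was 354 of 1687, part of the 753 above. Quantile normalization gave 430 lower and 0 higher calls, whereas without centring 108 were lower and 37 higher and the median was 0.01. L1Md_T, a related subfamily, had 128 lower and 37 higher of 2726 loci with a median of 0.00 after centring and 0.52 before. The difference between these subfamilies was not tested.

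The L1Md_A fall was found with PlaB. In untreated cells 129 of the same loci (7.38%) were higher in KO and 29 (1.66%) lower, against 5.69% and 16.6% of all repeat loci, and without centring 391 were higher and 8 lower. The interaction term was lower at 589 (33.7%, against 9.42% of all loci) and at 462 without centring. Of the L1Md_A loci tested 37.2% held H3K27ac in KO and 55.9% in WT, against 61.0% and 54.9% of all repeat loci tested. The share called lower was 9.93% of 302 loci with an OBOX4 peak in at least 2 lists and 23.8% of 1288 loci without an OBOX4 peak. L1Md_A RNA did not pass the test (−0.09, adjusted p = 0.863), although without the third KO library it was −0.50 (adjusted p = 0.00158).

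Promoters were compared by the highest peak within 3000 bases of the gene start (GENCODE vM21). Of 20374 promoters with a peak in at least 3 of 6 lists, 434 were higher in KO (2.13%) and 1182 lower (5.8%). The KO and WT values did not overlap at 51.3% of tested promoters. Quantile normalization gave 691 higher and 551 lower, and no centring 2290 and 212. The calls shared by all 3 scalings numbered 422 higher (2.07%) and 210 lower (1.03%). Leaving out centring raised every difference, so all 434 rises had to pass it, while 212 of the 1182 falls did. Quantile normalization kept 422 of the rises and 548 of the falls. Lower calls were made at weak promoters (median enrichment 10.0) and higher calls at stronger ones (26.2), against 41.4 where no call was made.

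2C-genes lost the mark in KO. Their promoters were weakly marked even in WT: of 41 members, 22 were held by at least 2 WT replicates, and 6 of these 22 (27.3%) were held in KO. Of the other 16, 15 had no KO peak at all. For comparison, 75.7% of all 2335 weak promoters (mean WT enrichment below 8) held in WT were also held in KO, against 2 of 18 weak 2C-gene promoters. Of 17 members tested 8 fell (5.8% of all promoters did), and the median was −0.998 (−0.47 without centring, where all promoters had 0.52). The list was written with earlier results of these data known, and 3 of the falls were called after quantile normalization and 2 without centring.

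*Zscan4f*, a member of the zinc finger cluster that marks 2C-like cells, had no peak in KO and 5.13, 6.41 and 4.86 in WT (−1.10 ± 0.18, adjusted p = 0.00108). *Zscan4c* had none in KO and 6.33, 4.71 and 4.30 in WT, a difference of −0.998 that just missed the fold limit (adjusted p = 0.00303), and *Zscan4d* had 4.35, no peak and 4.28 in WT and was not tested. *Zscan4e* fell by 1.01. *Zscan4f* and *Zscan4c* passed the filter through their WT peaks alone, with KO values at the floor. Their p-values thus compare WT peaks with that set value. The Zscan4 genes are near-identical copies, as are the *Usp17l* genes, so that their peaks and reads cannot be assigned with certainty to a copy.

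*Duxf3*, which encodes DUX, kept a weak peak. It had 3.00, 3.74 and 3.20 in KO and 5.63, 7.32 and 9.26 in WT (−1.66 ± 0.22, adjusted p = 0.000306), and it remained called without centring (−1.13). *Tmem92*, a transmembrane protein gene with a DUX peak in its promoter window, had no peak in KO and 7.37, 6.26 and 7.05 in WT (−1.45 ± 0.17, adjusted p = 0.000195). It too was tested through its WT peaks alone, with KO values at the floor. *Usp17le* (−1.58), *Usp17la* (−1.33), *Dppa3* (−1.29), a maternal factor, and *Pramel6* (−1.02) made up the rest of the falls. *Dppa2* (−0.94, adjusted p = 0.00639) and *Arl4d* (0.45) were not called, and *Sp110* had no peak in any list.

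**Figure D3:**
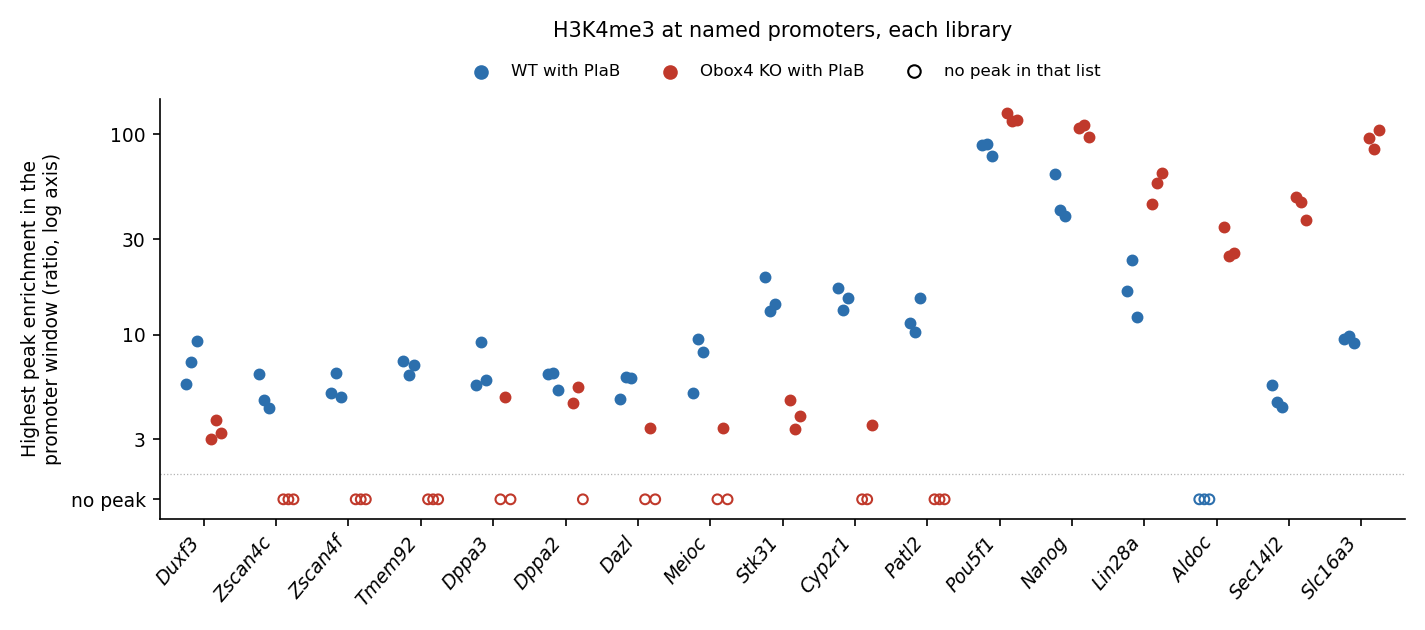
Highest H3K4me3 peak enrichment (ratio, log axis) in the promoter window of 17 genes, 3 WT (blue) and 3 KO (red) libraries with PlaB each; open circles are lists without a peak. The Zscan4, *Tmem92* and *Patl2* promoters have a peak in WT only, *Aldoc* in KO only, and *Pou5f1* is strongly marked in all 6 libraries.

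RNA of the same list fell too. Of 35 members tested, 16 fell (3.96% of all genes did), with a median of −1.16. Without the third KO library 27 of 36 fell (6.94% of all genes did), with a median of −1.67. *Sp110* RNA was 1.64, 1.33 and 2.5 CPM in KO and 22.0, 20.8 and 20.8 CPM in WT, without overlap, although the promoter had no H3K4me3 peak. For *Zscan4f* the third KO library (140 CPM) lay above WT (120, 127 and 106) while the others were at 52.8 and 49.5, so its RNA did not pass (−0.51, adjusted p = 0.346), although without that library it fell by 1.18 (adjusted p = 0.000162). H3K27ac fell at *Zscan4f* (7.50, 5.13 and 9.38 in WT and no peak in KO, −1.20, adjusted p = 0.00318) and at *Usp17la* (−1.04). The KO values at *Zscan4f* were again at the floor.

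Germ line and meiosis genes also lost the mark. Of 19 members, 14 were held in WT and 6 of these in KO, against 96.9% of all promoters held in WT. Of 11 weak members held in WT (mean enrichment below 8), 3 were held in KO, against 75.7% of all weak promoters. Of 13 tested 7 fell (5.8% of all promoters did). Their median was −1.04 (−0.51 without centring, where 1 was called, and 2 after quantile normalization). *Dazl*, an RNA-binding germ cell factor, had 3.40 in a single KO library and 4.75, 6.10 and 6.07 in WT (−1.19 ± 0.17). *Meioc*, which sustains meiotic prophase, had 3.40 in a single KO library and 5.12, 9.53 and 8.17 in WT (−1.59 ± 0.23), and remained called without centring. *Rec8*, *Asz1*, *Hormad1*, *Sycp1* and *Tex19.1* were the other falls (−1.48 to −1.04). Of these, *Asz1* and *Tex19.1* had H3K27me3 peaks in 3 of 3 KO and 0 of 3 WT lists. *Asz1* and *Hormad1* passed the filter through their WT peaks alone, with KO values at the floor. In RNA 3 of 19 members rose (4.92% of all genes did). Without the third KO library 4 rose and 1 fell (6.68% and 6.94% of all genes). *Tex19.1* had 0.76 in RNA and *Dazl* −0.83 (adjusted p = 0.0175), both with that library.

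Developmental regulators fell more moderately. Of 23 tested, 7 fell (5.8% of all promoters did), with a median of −0.70 that was −0.17 without centring, where 1 was called lower. *Hoxa9*, a homeobox gene of the posterior axis, had 11.3, 8.80 and 10.1 in KO and 20.4, 20.6 and 22.7 in WT (−1.61 ± 0.15, adjusted p = 6.06e-05), with RNA at 1.67, 1.76 and 0.773 CPM against 5.72, 7.96 and 6.42. Of 23 members of the list tested in RNA, however, 8 rose and 2 fell (4.92% and 3.96% of all genes), with a median of 1.03. Without the third KO library 7 of 24 rose and 5 fell (6.68% and 6.94% of all genes). *Neurog2*, a neurogenic factor, fell by 1.42. *Foxa2*, an endoderm factor named after its values were seen, fell by 1.29 while its RNA rose by 4.34 (adjusted p = 0.000564). The trophectoderm list fell at 4 of 13 promoters, among them *Gata3* (−1.26) and *Esx1* (−1.16), whose RNA rose by 1.72 and 1.73, and 9 of its 15 members rose in RNA (7 rose and 3 fell without the third KO library). Neither quantile normalization nor the uncentred values called any trophectoderm promoter lower, and *Esx1* had −0.22 from summits inside its window. At *Foxa2*, *Gata3* and *Esx1* the centred mark and the RNA thus moved in opposite directions.

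The other lists held fewer calls, where 5.8% of all promoters were called lower and 2.13% higher. Primitive endoderm genes fell at 4 of 10 promoters (*Foxa2*, *Pdgfra*, and *Col4a1* with *Col4a2*, which share a window, −1.10), and *Neurog1* fell in the neural list (−1.22). *Col1a2* (−1.26) among fibroblast genes, *Tal1* (−1.30) among blood genes and *Eda2r* (−1.03) among p53 targets were single falls. Of the imprinted genes *Meg3* rose (1.01) and *Dlk1* and *Grb10* fell (−1.05 and −1.03), while *Peg10* had −0.69 with an RNA rise of 3.41. In the interferon list *Oas1a* rose (1.11) and *Ifih1* fell (−1.05). Without centring no promoter of the lists in this paragraph was called lower. After quantile normalization only 2 primitive endoderm promoters and 1 blood promoter were, so most of these falls depended on the scale. In the pluripotency list *Lin28a*, an RNA-binding protein, rose (45.1, 57.5 and 64.4 against 16.4, 23.6 and 12.2, 1.19 ± 0.22), and *Prdm14* (0.63) and *Sall4* (0.48) stayed under the fold limit. In RNA 6 of the 20 pluripotency genes fell (3.96% of all genes did), with a median of −0.79. Without the third KO library 10 fell and 1 rose (6.94% and 6.68% of all genes). In H3K4me3, *Kmt2b* (0.66), which methylates H3K4, *Men1* (0.39), *Tbp* (0.39) and *Rpl13a* (0.57) also stayed under the fold limit.

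**Figure D4:**
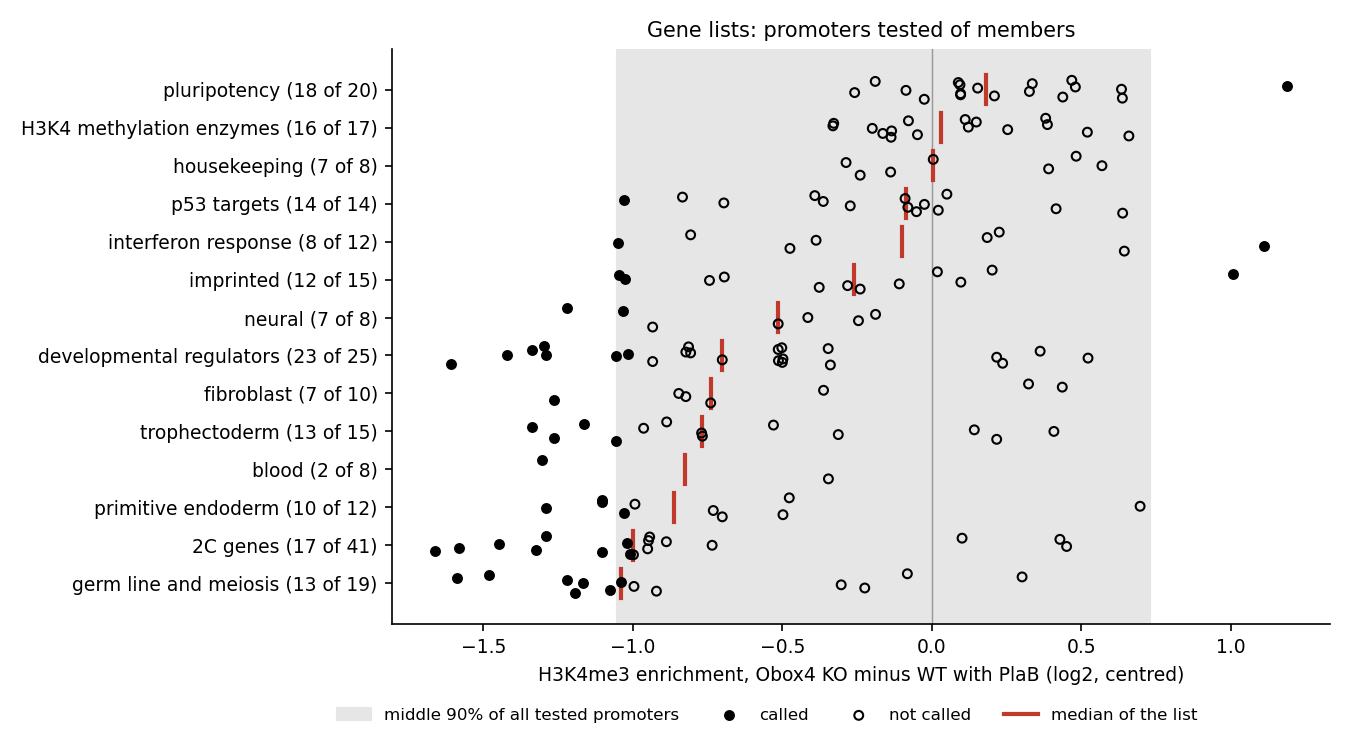
Centred KO minus WT difference (log2) of each tested promoter in 14 gene lists (filled when called), the median of each list (red) and the middle 90% of all tested promoters (grey, −1.05 to 0.73). The medians of the germ line and 2C lists, −1.04 and −0.998, lie at the lower edge of the grey band, and the pluripotency median is 0.18.

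The promoters with the largest rises fell into those with and without a peak summit in the window. By size alone they were *Mir6927*, *Mir5114*, *Ifitm5*, *Mir5098*, *Mir146b*, *Tmc4-ps*, *Mir6955* and *Spata25* (2.99 to 4.43), where mostly the edge of a strong neighbouring peak reached the window in KO. *Mir6927* had 105, 113 and 108 in KO and 3.23, 3.44 and no peak in WT (4.43 ± 0.14), but 1.55 when only summits inside the window counted. *Mir5114* (−0.05), *Mir5098* (−0.41) and *Spata25* (−1.16) turned their sign by that count, and the others had no tested value. Of 434 rises, 334 were also called from summits inside the window.

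Rises with the summit inside were chosen after their values were seen. *Slc16a3* (chr11:120948480-120960868), the lactate exporter MCT4, had 96.1, 85.1 and 106 in KO and 9.49, 9.83 and 9.08 in WT (2.81 ± 0.12, adjusted p = 2.97e-07). *Mir210*, a microRNA gene, had 87.0, 84.4 and 92.3 against 9.47, 9.82 and 10.2 (2.63 ± 0.11). *Aldoc*, an aldolase of glycolysis, had 34.4, 24.6 and 25.6 in KO and no WT peak (2.43 ± 0.18). The WT values of *Aldoc* were at the floor, so its difference rests on that floor. *Sec14l2*, a lipid-binding protein (2.65), *Slc7a7*, an amino acid transporter (2.44), and *Adm2*, a peptide hormone (2.08), were among the others. Without PlaB *Slc16a3* had 43, 65.6 and 62.3 in KO and 32.9, 19.8 and 31.1 in WT. *Adm2* then had 11.5, 15.9 and 19.2 in KO and 24.7, 19.7 and 19 in WT, against 76.3, 77.9 and 79.4 in KO and 13.8, 13.2 and 11.5 in WT with PlaB. The values with PlaB were thus higher in KO and lower in WT than without it at both genes. RNA did not pass at *Slc16a3* (−0.77, adjusted p = 0.111), *Aldoc* (−0.83, adjusted p = 0.0744) or *Adm2* (2.43, adjusted p = 0.0340). Without the third KO library *Slc16a3* (−1.36) and *Aldoc* (−1.30) fell and *Adm2* (2.95) rose.

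The falls were led by *Kpna1* (0, 0 and 0 in KO, 41.9, 41.9 and 43.7 in WT, −4.07 ± 0.15), a nuclear import factor, and *Adcyap1* (−2.58), a neuropeptide gene. *Kpna1* had no summit in the window and *Adcyap1* one in WT library 1 only, so that neither was tested by summits. Without PlaB the *Kpna1* difference was −4.10. *Cyp2r1* (chr7:114549682-114562972), a vitamin D hydroxylase, had 3.53 in a single KO library and 17, 13.2 and 15.3 in WT (−2.59 ± 0.18, adjusted p = 1.29e-05), and its window held H3K27me3 in 3 of 3 KO and 0 of 3 WT lists. *Stk31* (chr6:49395604-49469501), a kinase-related gene of the germ line, had 4.71, 3.37 and 3.94 against 19.3, 13.1 and 14.2 (−2.47 ± 0.21). *Pttg1*, the securin of sister chromatids, had 3.25, 5.44 and 4.41 against 16.2, 14.1 and 16.2 (−2.38), with RNA at −0.76 (adjusted p = 0.0112; −1.06 and 6.04e-05 without the third KO library). *Patl2*, an oocyte RNA-binding protein that shares its window with the meiotic gene *Terb2*, had no KO peak and 11.5, 10.3 and 15.3 in WT (−2.27). *Kpna1* and *Patl2* passed the filter through WT peaks alone, with KO values at the floor, so their differences rest on that floor. *Mir196b* (−2.44), a microRNA of the Hoxa cluster next to *Hoxa9*, and *Stpg2* (−2.29) completed the set, and without centring all 8 remained called.

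The RefSeq promoters (GRCm38.p6, 250 bases before to 50 after the start) of a rise, a fall and a 2C-gene are shown to compare their CpG content, with CG dinucleotides in capitals.
Slc16a3 at chr11:120948817-120949116 (+): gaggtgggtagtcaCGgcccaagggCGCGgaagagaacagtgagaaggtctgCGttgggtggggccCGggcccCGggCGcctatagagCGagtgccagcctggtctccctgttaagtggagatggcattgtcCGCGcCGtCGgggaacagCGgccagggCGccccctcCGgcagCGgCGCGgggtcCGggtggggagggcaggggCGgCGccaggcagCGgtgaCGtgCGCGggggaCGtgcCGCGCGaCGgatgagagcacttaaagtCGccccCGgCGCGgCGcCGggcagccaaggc
Stk31 at chr6:49395289-49395588 (+): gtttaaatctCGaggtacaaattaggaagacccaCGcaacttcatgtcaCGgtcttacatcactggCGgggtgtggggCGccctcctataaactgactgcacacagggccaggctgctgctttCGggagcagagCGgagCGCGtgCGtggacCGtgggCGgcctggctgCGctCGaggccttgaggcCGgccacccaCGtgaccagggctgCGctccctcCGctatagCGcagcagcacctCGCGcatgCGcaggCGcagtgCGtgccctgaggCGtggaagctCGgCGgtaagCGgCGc
Zscan4f at chr7:11397665-11397964 (+): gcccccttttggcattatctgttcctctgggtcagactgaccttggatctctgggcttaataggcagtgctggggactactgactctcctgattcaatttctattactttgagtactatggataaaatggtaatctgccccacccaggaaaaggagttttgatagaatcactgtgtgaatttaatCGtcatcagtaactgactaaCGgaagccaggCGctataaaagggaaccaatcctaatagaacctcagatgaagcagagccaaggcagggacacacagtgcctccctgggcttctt
They held 36, 29 and 3 CG dinucleotides, against a median of 7 over 32851 RefSeq promoters. The rise and the fall shown thus held more than that median, and the 2C-gene held fewer. Other named promoters varied: *Aldoc*, a rise, held 8 and 3 at its RefSeq starts, and the falls *Patl2*, *Pttg1* and *Cyp2r1* held 10, 20 and 22. The examples do not stand for all rises or falls.

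H3K27me3 and H3K27ac, measured in other lists, were set beside the H3K4me3 calls. H3K27me3 was held in KO at 76.8% and in WT at 61.0% of the 1182 lower promoters, against 33.6% and 26.7% of all tested promoters, and at 16.8% and 17.5% of the 434 higher promoters. H3K27ac was higher in KO at 31.1% of the higher set with an H3K27ac test (4.15% of all) and lower at 17.9% of the lower set (2.20% of all). At the 210 falls shared by all scalings 73.3% held H3K27me3 in KO. In RNA 9.10% of the genes of the lower set rose (5.66% of all promoters tested) and 5.28% fell (2.96% of all). Of the higher set 9.39% rose and 2.42% fell. Without the third KO library 12.8% of the lower set rose and 11.9% fell, against 7.43% and 6.22% of all. Over all genes tested in RNA 4.92% rose, and over all H3K27ac promoters tested 2.21% fell. An OBOX4 peak in at least 2 lists was present at 38% of the higher and 21.6% of the lower promoters, against 41.4% of all, and a DUX peak at 2.45% of the lower promoters and 1.18% of all. These shares were not adjusted for the strength of the promoters, which differs between the sets.

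**Figure D5:**
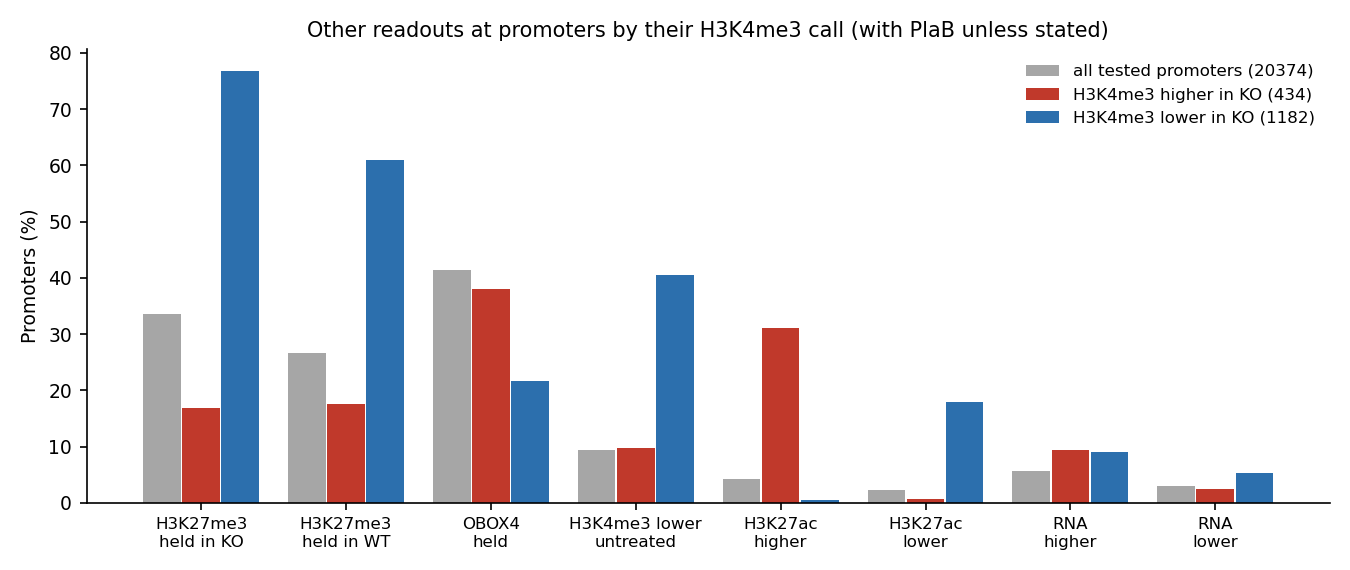
Share of promoters (%) with each other readout among all 20374 tested promoters (grey), the 434 higher (red) and the 1182 lower (blue) in KO, with H3K27ac and RNA shares taken over the promoters tested for them. H3K27me3 in KO is at 76.8% of the lower and 16.8% of the higher promoters.

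Part of the falls was present without PlaB. In untreated cells 479 of the 1182 lower promoters (40.5%) were also lower in KO, against 9.42% of all promoters tested with PlaB, and the median was −0.86. Both fits were centred. Over all 22477 promoters the untreated fit called 346 higher and 2434 lower, and 1646 and 980 without centring. Whether the overlap holds without centring or among promoters of like strength was not tested. Of the rises, 22 of 434 were higher in untreated KO (1.54% of all promoters in that fit were), with a median of −0.06. The signed KO minus WT difference was higher with PlaB than without at 1638 of 22477 promoters (7.29%) and lower at 794 (3.53%). Among them in their direction were 315 of the 434 rises and 246 of the 1182 falls. Those counts share the PlaB libraries with the calls and are a description. The length of the window under peaks was a further measure of the mark, and it was greater in KO at 588 promoters (2.89%) and smaller at 366 (1.8%). Without KO replicate 1, 2 or 3 it was greater at 141, 147 and 216 and smaller at 313, 260 and 323, and without WT replicate 1, 2 or 3 it was greater at 597, 557 and 511 and smaller at 68, 72 and 101, so that the balance of this measure turned with the library left out.

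Peak regions were counted without a test. The 6 lists merged into 43248 regions, of which 35643 were held by at least 2 replicates of a genotype. Both genotypes held 27189, KO only 5645 and WT only 2809, and 2037 were in 3 of 3 KO and 0 of 3 WT lists and 869 the reverse. Regions of a single genotype were short and weak, with median lengths of 596 (KO only) and 586 bases (WT only) against 1573 and median enrichments of 4.80 and 4.75 against 19.4. Sharing was greatest at promoters, where 87.9% of 17169 regions were held by both, and lower at distal repeats (70.4% of 13523) and other distal regions (52.2% of 4951). At promoters 1361 regions were KO only and 716 WT only, whereas the centred calls held more falls (1182) than rises (434). H3K27ac was present in KO at 48.7% of KO-only regions and in WT at 28.0%. At WT-only regions it was present at 22.4% and 33.7%. Of WT-only promoter regions 46.9% carried H3K27me3 in KO, against 30.9% of those held by both. The WT-only regions were mostly held in untreated WT cells (79.6%), and 52.0% were held in untreated KO cells.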

How the data were processed

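H3K4me3 was measured by CUT&RUN, and the authors aligned reads with Bowtie2 2.4.1 to GRCm38.p6 and called peaks in each replicate with MACS3 3.0.0a6. The deposited lists give peak enrichment as a ratio to background and −log10 q values. The deposited gene counts and repeat expected counts (fractional, rounded here) were made by the authors with fastp 0.23.2, STAR 2.7.9a and featureCounts 2.0.1.

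A promoter or repeat took its highest overlapping peak. A list without one took that list's 5th percentile. Features with a peak in at least 3 of 6 lists were log2 transformed, median centred and tested in limma 3.58.1 with Benjamini-Hochberg adjustment over all features (adjusted p of at most 0.05, log2 difference of at least 1; names of repeats, mean of at least 10 loci, 0.5 added, adjusted p alone). RNA was tested in edgeR 4.0.16 (quasi-likelihood, adjusted p of at most 0.01, log2 fold change of at least 1), with DESeq2 1.42.0 as an alternative. Named genes were those of the study, the 8 largest non-overlapping rises and falls among called promoters, and the 2 members with the smallest p of each list. Other called members of the lists and other named genes were chosen after their values were seen. The members and lists were chosen with earlier results of these data known. Scripts were tested on simulated data. 3 samples without a clear group were left out. Some items are not reported here.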

Additional observations from a re-analysis of the deposited data

Results flagged for a closer look

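The KO minus WT difference in H3K4me3 depended on PlaB, by the interaction term of limma over 12 libraries. With its sign kept, this difference was higher with PlaB at 1638 promoters and lower at 794. Among repeat names it was lower for MT2_Mm (−3.45) and MERVL-int (−3.36), which fell in KO with PlaB. It was higher for RLTR17B_Mm (0.92), MER20 (0.86), RLTR10 (0.74), RMER1B (0.57) and RMER17A2 (0.48).

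Among the promoters with the largest changes, the signed difference was higher with PlaB at *Mir6927* (4.36), *Slc7a7* (3.25), *Adm2* (2.94), *Rara* (2.64), a retinoic acid receptor, and *Ano9* (2.22). It was lower at *Mir196b* (−2.43), *Naip3* (−2.29), *Fam198b* (−1.91), *Stk31* (−1.49) and *Znrf4* (−1.49). These values share the PlaB libraries with the comparison that chose the promoters.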

How the results depend on the processing

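Promoter counts (434 higher, 1182 lower) became 2290 and 212 without centring, 691 and 551 after quantile normalization, 721 and 428 after loess, and 3513 and 4443 with no minimum difference. The lowest value of a list as its floor gave 727 higher, log2(enrichment + 1) gave 674, and peaks with a −log10 q of at least 10 gave 752 lower. At repeat loci (2013 and 1879), no centring gave 4794 and 679, peaks in all 6 lists 481 and 717, strict peaks 1232 and 924, no minimum difference 3320 and 3431 and summits inside 137 and 753. The lowest floor gave 3228 higher, log2(enrichment + 1) gave 3186, and peaks over at least 0.5 of the locus gave 949 lower. Without centring 9 repeat names fell, and with 0.5 of the locus covered 22 rose. Covered length was lower at 159 promoters from strict peaks. The interaction was lower at 502 promoters without centring and at 1203 after quantile normalization. In interaction names no centring gave 174 higher and 3 lower. In untreated cells no centring gave 1 and 178 names, 3184 and 2035 loci and 1646 and 980 promoters higher and lower. WT-only regions were 5110 by any replicate and 1079 from strict peaks, with 361 in 0 KO and 3 WT lists. *Mir5098* turned to −0.36 within 1000 bases and −0.41 by summits, *Spata25* to −0.26 and −1.16, and *Mir5114* to −0.046 by summits. The cause was not tested.

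Leaving out each replicate in turn gave 387 to 463 higher and 1034 to 1212 lower promoters, 672 to 2156 and 1038 to 1804 repeat loci, 19 to 42 and 31 to 42 names, 141 to 597 and 68 to 323 covered lengths, 1553 to 1789 and 773 to 863 interactions, 687 to 1561 and 535 to 1623 RNA genes, and 19 fallen repeat names in RNA. Regions ranged over 25541 to 26520 (both), 3680 to 7293 (KO only), 1631 to 3811 (WT only), 2323 to 2772 (3 KO and 0 WT) and 967 to 1410 (0 KO and 3 WT). Higher loci fell to 672, 708 and 1150 without KO replicates 1, 2 and 3, and lower loci to 1076, 1038 and 1204 without WT replicates 1, 2 and 3, each leaving 2 libraries in a group.

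Same-numbered KO and WT libraries deviated together weakly (r = 0.019, 0.043 and 0.155), and libraries of unlike number had −0.138 to 0.099. These values, from 3 libraries per genotype, cannot decide whether the numbers pair them. With a replicate block 450 promoters were higher and 1186 lower, 51 repeat names rose and 51 fell, the interaction counts were 1651 and 795, and RNA gave 966 and 797. The depth of the peak lists is unknown, and weak peaks limit the counts at MERVL and 2C-genes.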
